A study of Mus musculus with 12 samples.

Results

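The clustered histone genes are the genes that carry the symbols Hist1h, Hist2h, Hist3h and Hist4h, and the 69 gene columns with these symbols, of 27998 columns in all, were taken without use of any measured value. By symbol, 6 columns are linker histones of type H1. The core histones take 19 columns of type H2A, 19 of type H2B, 12 of type H3 and 13 of type H4. Hist1h2al, counted with H2A, is called a processed pseudogene by the gene annotation. Hist2h2bb has a pair of columns, which were kept apart. In all, 48 members averaged at least 1 CPM (counts per 1e+06 unique molecular identifiers, UMIs, which each mark a captured RNA molecule) over the 12 libraries, with Hist2h2aa1 just inside this limit at 1.001 CPM and Hist1h2bh just outside it at 0.985 CPM. The data are droplet single-cell RNA profiles of mouse bone marrow cells that were enriched for the surface receptor c-Kit with magnetic beads. Of the 4 genotypes, WT mice lacked Mx1-Cre. E2-KO mice carried Mx1-Cre and the floxed alleles Ezh2 f/f, G12D mice carried Mx1-Cre and 1 activated allele NRas G12D+/-, and G12D/E2-KO mice carried all of these. Every mouse, WT included, was injected with pIpC, which turns on the interferon-responsive Mx1 promoter, at 8 to 12 weeks of age by the labels, and cells were taken after 2 weeks for T1, after 2 months for T2 and after 4 months for T3. The study's methods give a younger age at injection, so the age is not settled here. Each genotype and time point is 1 library, so the 3 libraries of a genotype are its 3 time points. WT differs from the other genotypes in Mx1-Cre as well, and Mx1-Cre acts outside blood cells too.

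Core histones wrap DNA into nucleosomes, and H1 binds the DNA between them. Most clustered histone genes are transcribed when DNA is replicated, and their mRNA ends just after a stem-loop in place of a poly(A) tail. The stem-loop is bound by SLBP, which guides the cut by the U7 ribonucleoprotein, and the mRNA is degraded when replication ends. Some members also make, or mainly make, a polyadenylated mRNA that persists outside S phase and in cells that leave the cycle, such as maturing blood cells. Reads here came from poly(A) capture, so these libraries count the polyadenylated or internally primed part of each gene's RNA, and levels between genes do not rank their total mRNA. Ezh2 is the enzyme of Polycomb repressive complex 2 that methylates lysine 27 of histone H3, and NRas G12D is a constantly active signaling protein. The question asked of each comparison was whether these genes differed in level with Ezh2 loss, with NRas activation or with both.

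The annotated transcript ends show which members have a stem-loop and which run on past it to a poly(A) signal. The following sequences come from the longest GENCODE M21 transcript of each gene (GRCm38/mm10), written 5′ to 3′ on the transcript strand. They are examples from genes that behave differently in the comparisons that follow, where the annotated end did not sort all tested members by direction. Capitals mark the 16 stem-loop letters (GGNNNTTTTNAGNNCC, searched on the transcript strand), which 0.205% of all transcripts held, or the poly(A) signal (AATAAA or ATTAAA in the last 40 bases), which 48.7% of protein-coding transcripts held.

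Hist1h2ap stem-loop, chr13:21833026-21833049, minus strand: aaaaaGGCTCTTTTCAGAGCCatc
Hist1h1e stem-loop, chr13:23621777-23621802, minus strand: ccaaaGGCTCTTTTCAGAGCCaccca
Hist1h4i stem-loop, chr13:22040961-22040986, minus strand: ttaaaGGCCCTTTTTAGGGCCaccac
Hist1h4i poly(A) signal, chr13:22040641-22040666, minus strand: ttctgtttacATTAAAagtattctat
Hist1h1c stem-loop, chr13:23739507-23739532, plus strand: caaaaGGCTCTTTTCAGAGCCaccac
Hist1h1c poly(A) signal, chr13:23740332-23740357, plus strand: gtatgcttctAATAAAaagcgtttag
Hist3h2ba stem-loop, chr11:58949344-58949369, plus strand: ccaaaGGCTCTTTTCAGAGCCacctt
Hist3h2ba poly(A) signal, chr11:58949497-58949522, plus strand: taatggtattAATAAAtttggttcaa
Hist3h2a stem-loop, chr11:58955167-58955192, plus strand: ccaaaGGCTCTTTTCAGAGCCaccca
Hist3h2a poly(A) signal, chr11:58956787-58956812, plus strand: gtatatgcccAATAAAataagagtac

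Hist1h2ap ended 3 bases after its stem-loop, as a replication-dependent mRNA does. The Hist3h2ba transcript ran 169 bases past its own stem-loop, the Hist1h4i transcript 330 bases, the Hist1h1c transcript 840 bases, the Hist1h1e transcript 1153 bases and the Hist3h2a transcript 1643 bases. Of 67 members found in the annotation, 55 lay on chromosome 13, 9 on chromosome 3, 2 on chromosome 11 and 1 on chromosome 6. By annotated end, 21 stopped within 100 bases of the stem-loop, 11 ran past it to a poly(A) signal, 11 ran past it without one, 5 held a poly(A) signal but no stem-loop letters, and 19 held neither. Hist1h1a, Hist1h1b and Hist1h2bc were among those with neither, and a missing motif says only that these letters are not in the transcript model. A second grouping, from general knowledge, put 7 members on a polyadenylated list: Hist1h1c, Hist1h2bc, Hist1h2be, Hist2h2be, Hist3h2a, Hist3h2ba and Hist4h4. The other 62 members, Hist1h2al among them, are called replication-dependent here. However, a library that holds their poly(A)-captured RNA cannot separate the RNA forms of 1 gene.

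The libraries held 12.6 to 23.6 M UMIs (1 M is 1e+06). In the files, 2896 of the 5648 cells of the G12D T1 library (51.3%) were also present in the G12D/E2-KO T1 library. Of these, 1494 had equal counts for every gene. They matched 2896 distinct cells of the 3044 in G12D/E2-KO T1, so most of that library was shared. No cell was shared in the other 65 pairs of libraries. Shared cells were left out of G12D T1 and kept in G12D/E2-KO T1, so that 32701 cells entered the comparisons. Ezh2 lay at 20.7 to 34.6 CPM in the 6 libraries of Ezh2-deleted genotypes and at 81.7 to 133 CPM in the other 6, as the labels state. Xist, which marks female cells, was high only at T3, in WT, E2-KO and G12D, so sex and time cannot be told apart in these genotypes. The G12D/E2-KO T3 library held 0.13 CPM of Xist, so at T3 the double mutant differs from the other genotypes in sex as well. Between 66 and 69 members had at least 1 UMI in each library.

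Over all cells, the members together took 641 ± 231 CPM (SD, n = 12 libraries). H2A genes held 44.1% of member UMIs with 287 ± 157 CPM, H1 genes 26.1% with 166 ± 54.1 CPM, H2B genes 15.6% with 96.9 ± 17.1 CPM, and H4 genes 11.8% with 74.8 ± 32.3 CPM. H3 genes held 2.40% with 15.3 ± 4.55 CPM, and no H3 gene reached a mean of 3 CPM over the libraries. The polyadenylated list gave 120 ± 19.6 CPM (19.5% of member UMIs) and the replication-dependent members gave 520 ± 227 CPM, an SD that E2-KO T3 widens with 1160 CPM against 379 to 696 in the other 11 libraries. In sums over all cells, fewer cells of a type and less RNA per cell cannot be told apart.

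Hist1h2ap, an H2A gene of the largest cluster, had the highest mean, 94.8 ± 69.5 CPM. Its libraries gave 82.6, 38.9 and 80.7 CPM in WT at T1, T2 and T3, 57.0, 43.5 and 277 in E2-KO, 141, 54.6 and 89.8 in G12D, and 167, 56.9 and 49.6 in the double mutant G12D/E2-KO. The E2-KO T3 library stood above all others, and every pair of genotypes overlapped. Hist1h2al, which the annotation calls a processed pseudogene of 339 bases (chr13:51202727-51203065, minus strand), gave 119, 81.8 and 125 CPM in WT, 94.5, 93.8 and 241 in E2-KO, 15.5, 96.5 and 49.5 in G12D, and 14.3, 141 and 43.0 in the double mutant G12D/E2-KO. The G12D and G12D/E2-KO libraries of T1 were the lowest 2 of the 12.

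Hist1h1b, the linker histone H1.5, gave 105, 43.9 and 96.2 CPM in WT, 55.1, 57.6 and 100.1 in E2-KO, 39.8, 44.9 and 42.2 in G12D, and 50.3, 43.6 and 54.6 in the double mutant G12D/E2-KO. Hist1h1e, H1.4, followed the same order of libraries in WT, with 82.3, 27.6 and 73.6 CPM in WT, 35.8, 40.7 and 91.6 in E2-KO, 37.5, 36.2 and 41.5 in G12D, and 42.7, 38.6 and 44.8 in the double mutant G12D/E2-KO. For both genes, WT T2 lay within the range of the mutant libraries or below it, so no genotype stood apart from WT. Hist1h4i, an H4 gene, gave 83.5, 75.6 and 68.7 CPM in WT, 19.2, 52.6 and 45.4 in E2-KO, 20.9, 22.1 and 19.2 in G12D, and 20.1, 38.9 and 93.6 in the double mutant G12D/E2-KO. All E2-KO and G12D libraries lay below all WT libraries, whereas G12D/E2-KO ran from below all WT libraries at T1 to the highest of the 12 at T3.

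Among the polyadenylated members, Hist1h2bc, an H2B gene, gave 57.6, 64.5 and 47.4 CPM in WT, 34.9, 45.2 and 36.0 in E2-KO, 29.8, 29.99 and 23.0 in G12D, and 33.8, 30.002 and 51.1 in the double mutant G12D/E2-KO. E2-KO and G12D did not overlap WT, and G12D/E2-KO did through its T3 library. Hist3h2ba, an H2B gene of the small cluster on chromosome 11, gave 11.8, 13.9 and 6.40 CPM in WT, 25.9, 24.9 and 25.4 in E2-KO, 10.3, 13.3 and 5.34 in G12D, and 24.6, 18.5 and 11.7 in the double mutant G12D/E2-KO. Its E2-KO libraries lay close together and above every WT and G12D library. Its neighbor Hist3h2a, an H2A gene, varied little, with 18.2, 15.4 and 14.03 CPM in WT, 19.0, 19.1 and 14.6 in E2-KO, 17.6, 15.7 and 16.2 in G12D, and 22.0, 18.3 and 17.2 in the double mutant G12D/E2-KO. Hist1h1c, H1.2, averaged 33.5 ± 6.74 CPM with a range of 23.0 to 48.9.

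**Figure D1:**
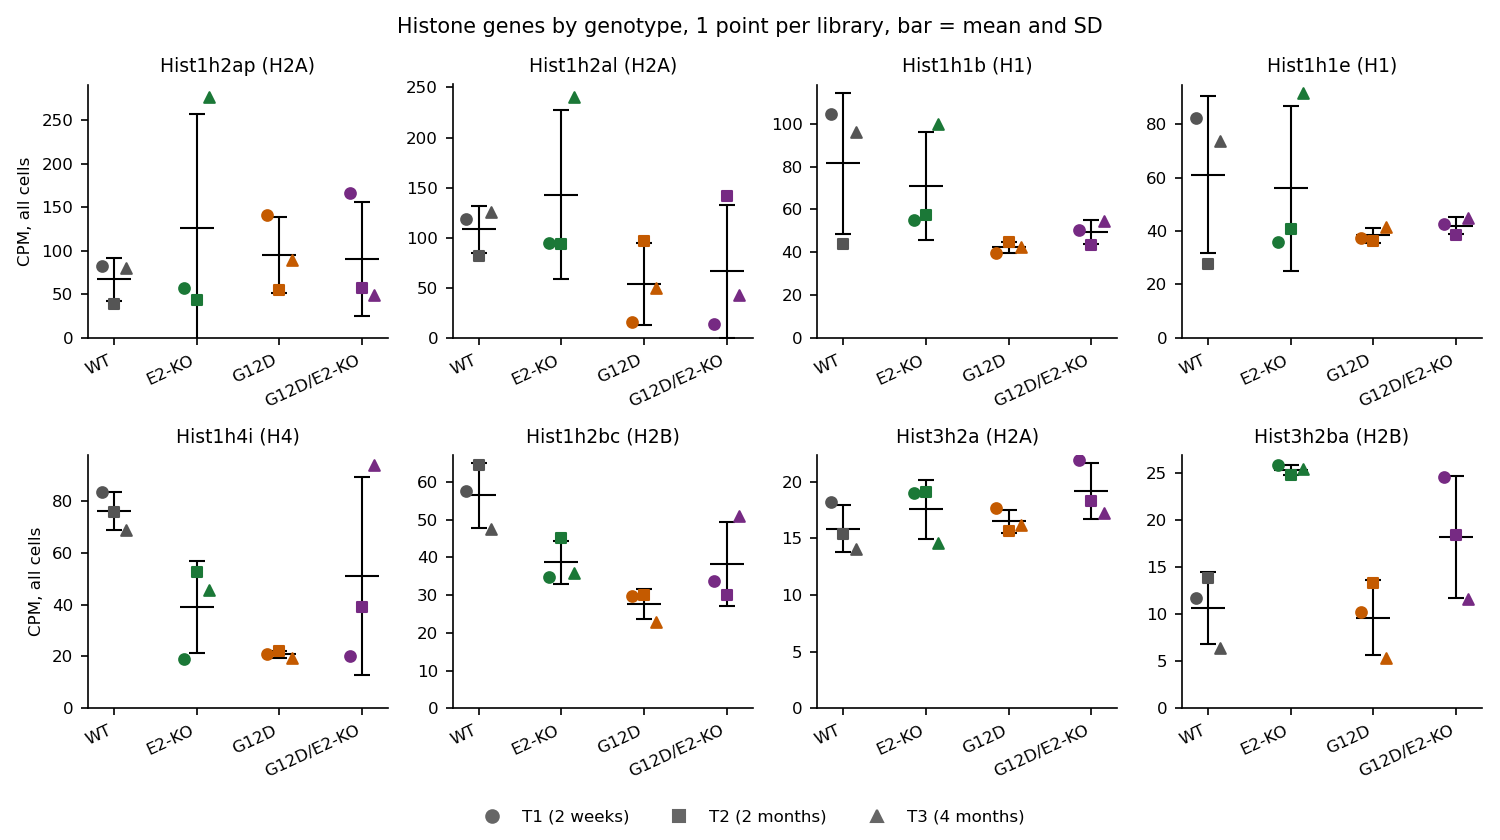
Level (CPM of all UMIs) of Hist1h2ap, Hist1h2al, Hist1h1b, Hist1h1e, Hist1h4i, Hist1h2bc, Hist3h2a and Hist3h2ba in each of the 12 libraries. Each point is 1 library, colors give the genotype, and bars give the mean and SD. Hist3h2ba lies near 25 CPM in every E2-KO library, and the E2-KO T3 library stands out for Hist1h2ap at 277 CPM.

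The remaining members of at least 1 CPM follow by type. Of the other linker histones, Hist1h1d (H1.3) averaged 11.3 CPM (8.06 to 20.6 over the libraries) and Hist1h1a (H1.1) 11.04 CPM (6.17 to 22.5). Of the H2A genes, Hist1h2ae averaged 36.2 CPM (17.1 to 110), Hist2h2ac 10.4 (6.79 to 25.2), Hist1h2ak 8.06, Hist1h2ab 4.97, Hist1h2ai 3.67, Hist1h2ag 3.51, Hist1h2ao 3.05, Hist1h2aa 2.90, Hist1h2ac 2.68, Hist2h2ab 2.10, Hist1h2an 1.44, Hist2h2aa2 1.14 and Hist2h2aa1 1.001. Hist1h2aa had the widest relative range of these, from 0.456 to 9.34 CPM, while Hist1h2ag stayed between 2.67 and 4.47 CPM. Of the H2B genes, Hist1h2bj averaged 9.37 CPM (5.34 to 15.4), Hist1h2bm 5.37, Hist2h2be 4.99, Hist1h2be 4.27, Hist1h2bb 3.86, the higher column of Hist2h2bb 2.54, Hist1h2bg 2.14, Hist1h2bp 1.90, Hist1h2bk 1.70 and Hist1h2bl 1.49. The H3 genes were Hist1h3e at 2.80 CPM, Hist1h3c at 2.12, Hist1h3g at 2.06, Hist1h3a at 1.81, Hist2h3c1 at 1.53, Hist1h3d at 1.47 and Hist1h3i at 1.04. Of the H4 genes, Hist1h4d averaged 10.4 CPM (5.62 to 30.6), Hist4h4 4.20, Hist1h4h 2.60, Hist1h4c 2.22, Hist2h4 2.10, Hist1h4j 1.79 and Hist1h4b 1.63. The ordering within each type rests on 3′ counts, which depend on where reads can be assigned.

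Some of these columns share long stretches of sequence with other genes, so that a read from such a stretch cannot be assigned to 1 gene. Of all 50-base stretches in the Hist1h2ap transcript, 93.1% occurred in another gene, mostly Hist1h2ao. The share was 67.6% for Hist1h2al, mostly with Gm20634, 43.2% for Hist1h2ae, 32.0% for Hist1h1e, 31.5% for Hist3h2a (shared with Trim17), 30.1% for Hist1h2bc and 28.9% for Hist1h4i. It was 22.1% for Hist3h2ba, 8.54% for Hist1h1c, 2.25% for Hist1h1d and 0 for Hist1h1a and Hist1h1b. Of the UMIs of Hist1h2al and Hist1h2ap together, Hist1h2al took 7.89% in G12D/E2-KO T1 and 9.90% in G12D T1, against 35.5% to 71.3% in the other 10 libraries. The same split held in all 8 cell classes compared, for example 8.14% to 14.1% against 42.6% to 75.6% in granulocyte-monocyte progenitors (a class gated by Mpo, Elane and other markers that early granulocytes share, so it may hold both), and 8.65% to 9.37% against 32.1% to 73.1% in late erythroid cells. These are the 2 libraries that shared cells in the deposited tables, and with the shared cells counted once the split was the one given here. The cause of the split was not tested. The columns of Hist1h2al, Hist1h2ap, Hist1h2ao, Hist1h2ak, Hist1h2ai and Hist1h2an were also summed as 1 feature, although they are not all near-identical. Hist1h2ak shared 43.3% with its closest gene, Hist1h2ao. For this sum, the log2 difference of E2-KO from WT was 0.54 (adjusted p = 0.677, edgeR quasi-likelihood test).

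**Figure D2:**
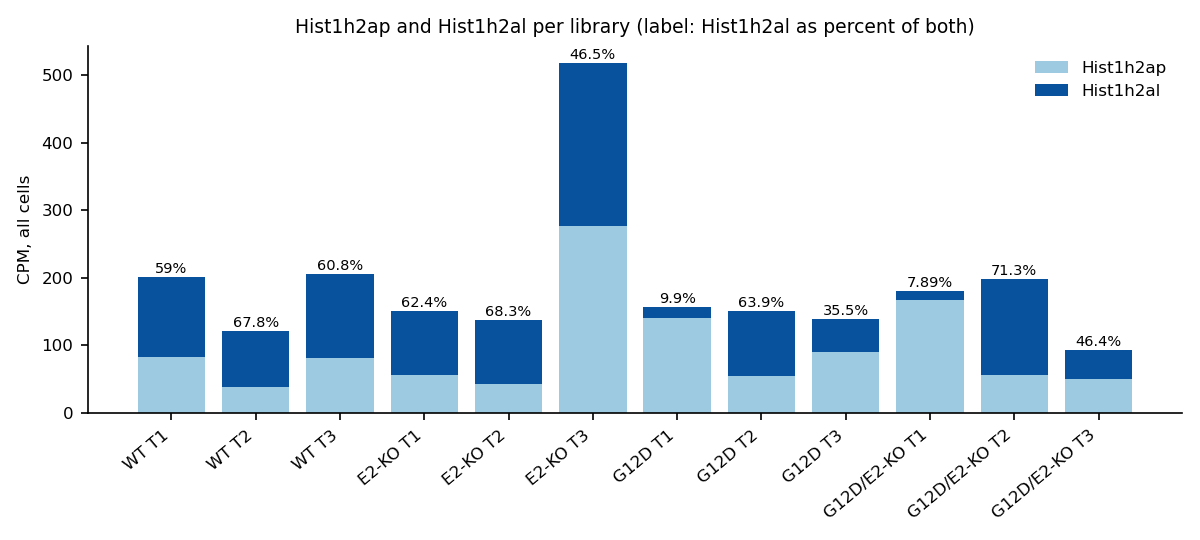
Level (CPM, stacked bars) of Hist1h2ap and Hist1h2al by library over all cells. Labels give the share (percent) of Hist1h2al in the UMIs of both. G12D T1 and G12D/E2-KO T1 lie at 9.90% and 7.89%, and the other 10 libraries lie between 35.5% and 71.3%.

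With the time point as a block, 59 members passed the filter on low counts and were tested among 12848 genes. In E2-KO against WT, 1 member rose and none fell, beside 1.59% of all genes called in either direction. Hist3h2ba was 1.33 higher on the log2 scale (SE 0.28, adjusted p = 0.0460), and the library values above did not overlap. The call did not hold in 8 of 12 fits that left out 1 library, with adjusted p from 0.0561 (without G12D T2) to 0.239 (without WT T3), and the difference fell to 0.89 (adjusted p = 0.0825) without E2-KO T3. The adjusted p was 0.115 without WT T1, 0.121 without WT T2, 0.0725 without E2-KO T1, 0.0808 without G12D T1 and 0.0651 without G12D/E2-KO T2. Hist3h2ba was 0.74 higher in G12D/E2-KO than in WT (adjusted p = 0.121) and 0.87 higher than in G12D (adjusted p = 0.189), neither of which passed. Of the 7 members of the polyadenylated list, no other was called.

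No member was called by edgeR in G12D against WT, beside 0.109% of all genes, although 7 members had an unadjusted p under 0.05 and DESeq2 called 3, which were Hist1h4i, Hist1h2bc and Hist1h4c, all lower. Hist1h2bc was 0.99 lower in G12D (log2 -0.99, SE 0.18, adjusted p = 0.0962), and Hist1h4i had a log2 difference of -1.84 (SE 0.42, adjusted p = 0.230). In G12D/E2-KO against WT, edgeR called none of the 59 beside 5.69% of all genes, with 4 at an unadjusted p under 0.05, and DESeq2 called only Hist1h2bc among the members. Without the G12D/E2-KO T3 library, edgeR called 4 members there, Hist1h2bc among them (-0.86, adjusted p = 0.0162). The 5.69% belongs to the fit of all libraries and not to this one. In G12D/E2-KO against G12D, edgeR and DESeq2 both called 0 beside 1.36% of all genes in edgeR, with 5 members at an unadjusted p under 0.05. The interaction of NRas activation and Ezh2 loss had 0 members called by either tool, with 6 at an unadjusted p under 0.05 and 0.0934% of all genes called. Hist1h4i had an interaction term of 2.06 on the log2 scale with an adjusted p of 0.676. Here and below, genotype contrasts by DESeq2, without 1 library or at an unadjusted p are given without the share of all genes. Such counts do not set members apart from other genes.

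The median log2 difference of the 59 tested members from WT was 0.31 in E2-KO, -0.33 in G12D and -0.12 in the double mutant G12D/E2-KO, where all genes tested had medians of 0.0043, -0.0089 and 0.012. These comparisons share the WT libraries, and members passed the filter in part through the libraries where they are high. The member sum was 540, 566 and 1282 CPM in E2-KO at T1, T2 and T3, against 835, 532 and 763 CPM in WT. Of the E2-KO libraries, only T3 lay above all WT libraries in this sum. Counted by libraries that do not overlap, over the 48 members of at least 1 CPM, E2-KO lay above WT for 8 members (15.1% of all genes of that level did) and below for 2, Hist1h4i and Hist1h2bc (10.2% of genes). G12D lay above WT for 2 members (7.14%) and below for 12 (9.55%), among them Hist1h4i, Hist1h2bc, Hist1h4c, Hist1h2bj and Hist1h3c. G12D/E2-KO lay above WT for Hist1h2bl and Hist1h4h (14.4%) and below for none (10.9%), and it lay above G12D for 4 members (9.23%) and below for none (3.55%). Between time points, over all genotypes, edgeR and DESeq2 called 0 members at T2 or at T3 against T1, and edgeR called 0% of all genes. At an unadjusted p under 0.05, edgeR had 0 members at T2 and 3 at T3.

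The E2-KO T3 library was the highest of the 12 for 32 of the 48 members, whereas it was the highest for 10.9% of all genes of at least 1 CPM. The replication-dependent members summed to 1160 CPM in it and to 379 to 696 CPM in the other 11 libraries. The polyadenylated list stood at 121 CPM, within the 77.2 to 142 CPM of the others. The excess of the replication-dependent sum was present in all 8 classes, for example 2301 CPM against 475 to 1374 in late erythroid cells and 363 CPM against 182 to 304 in granulocyte-monocyte progenitors. This library also had the fewest UMIs of the 12 and the highest haemoglobin Hba-a1, with 19217 CPM against 1884 to 8981. The noncoding RNA genes Gm42418 and Gm26917 were highest there too, with 409.7 CPM against 66.4 to 228 and 363 CPM against 127 to 265. The part of these in the histone counts was not tested.

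To compare phases, cells were thinned to 2000 UMIs each and gated by 41 genes of S phase and 40 of G2 and M phase, none of them a histone. Of all cells, 7153 fell in the S gate, 9287 in the G2M gate, 2010 in a low-cycle gate and 13504 between them, while 747 cells were too shallow. Low-cycle cells had at most 1 UMI of both lists together. Late granulocytes made up 55.5% of the low-cycle, 9.37% of the S-gated and 39.0% of the G2M-gated cells. Late erythroid cells made up 18.6%, 1.85% and 8.31%, so phase and cell class move together.

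In S-gated against low-cycle cells, 12 members passed the filter and 11 were called among 8666 genes, of which 62.5% were called (34.3% higher, 28.2% lower). Of the 8 replication-dependent members tested, 7 rose. The 8 are those that passed the filter on low counts, in part through the S gate where they are high, so their count does not stand for all members. Without the filter, 24 of 61 such members were called higher and 0 lower, beside 22% of all genes higher. Hist1h2ap gave 24.2 to 187 CPM over the 12 libraries in the S gate (median 40.4) and a total of 10 UMIs in the low-cycle gate, where 6 libraries were at 0, and its log2 difference was 4.76 (SE 0.34, adjusted p = 3.47e-12). The difference was 4.20 for Hist1h1a, 3.46 for Hist1h1b, 2.97 for Hist1h2ae, 2.36 for Hist1h2al, 1.27 for Hist1h1d and 1.05 for Hist1h1e, with adjusted p from 6.13e-13 to 0.00224. Hist1h1b averaged 48.7 CPM in the S gate and 2.24 CPM in the low-cycle gate.

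The 4 tested members of the polyadenylated list were lower in the S gate with all classes pooled. Hist3h2a differed by -1.68 (adjusted p = 7.61e-08), Hist1h1c by -1.34 (adjusted p = 0.0176), Hist3h2ba by -1.27 (adjusted p = 0.000559) and Hist1h2bc by -1.18 (adjusted p = 0.00664). Hist1h4i, whose transcript model has both a stem-loop and a poly(A) signal, differed by 0.22 (adjusted p = 0.530) and stood at 26.8 CPM in low-cycle and 47.7 CPM in S-gated cells. Of the 5 tested members whose model runs past the stem-loop to a poly(A) signal, 3 were lower and 1, Hist1h2ae, was higher by 2.97. Under library sizes without TMM scaling factors, the median of all genes moved from 0.11 to 0.90. Under that scaling Hist3h2a remained lower (-0.89, adjusted p = 0.000291), Hist1h1c (-0.50, adjusted p = 0.321), Hist1h2bc (-0.37, adjusted p = 0.334) and Hist3h2ba (-0.49, adjusted p = 0.126) were no longer called, and Hist1h4i was called higher (1.03, adjusted p = 0.0154), as it was without G12D/E2-KO T2 (0.53, adjusted p = 0.0155) and when cells were gated without thinning (0.79, adjusted p = 0.0225), where Hist1h1c was not called (-0.41, adjusted p = 0.112). The mean of Hist1h1c in low-cycle cells, 85.4 ± 140 CPM, was set by G12D/E2-KO T2 with 442 CPM and T3 with 317 CPM, and its median was 27.4 CPM. Late erythroid cells, where this list is highest, were 18.6% of low-cycle and 1.85% of S-gated cells. Phase and cell class therefore cannot be told apart in these differences. In late granulocytes Hist3h2ba had 11 UMIs in the S gate and 3 in the low-cycle gate in Ezh2-deleted libraries, and 1 and 0 in the others. No result of this contrast within a class is given.

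Most tested members were higher in the G2M gate than in the S gate. In a fit of all 4 gates, 32 of 39 tested members were higher in G2M-gated than in S-gated cells and none was lower, beside 30.5% of 10798 genes higher and 30.6% lower. Hist3h2ba had the largest difference, 2.44 (adjusted p = 9.56e-26), followed by Hist3h2a with 1.53 and the higher Hist2h2bb column with 1.45, and Hist1h2ap had 1.002. Hist3h2ba thus averaged 8.83 CPM in low-cycle, 5.95 in S-gated and 28.7 in G2M-gated cells, and Hist3h2a followed the same order with 20.9, 10.3 and 26.5 CPM. Not called were Hist1h1a, Hist1h1c, Hist1h2bc, Hist1h2bg, Hist1h3a, Hist1h3e and Hist1h4i. The replication-dependent members summed to 73.9 CPM in low-cycle, 391 in S-gated, 573 in G2M-gated and 593 in intermediate cells, whereas the polyadenylated list summed to 192 (median 104), 103, 136 and 119 CPM. These values pool the classes, and late erythroid cells, rich in Hist3h2ba, were 8.31% of G2M-gated and 1.85% of S-gated cells. Phase and class therefore cannot be told apart here. Within single classes Hist3h2ba was tested only in B lymphoid cells, where it was 1.80 higher in the G2M gate (adjusted p = 6.27e-12, edgeR quasi-likelihood test).

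**Figure D3:**
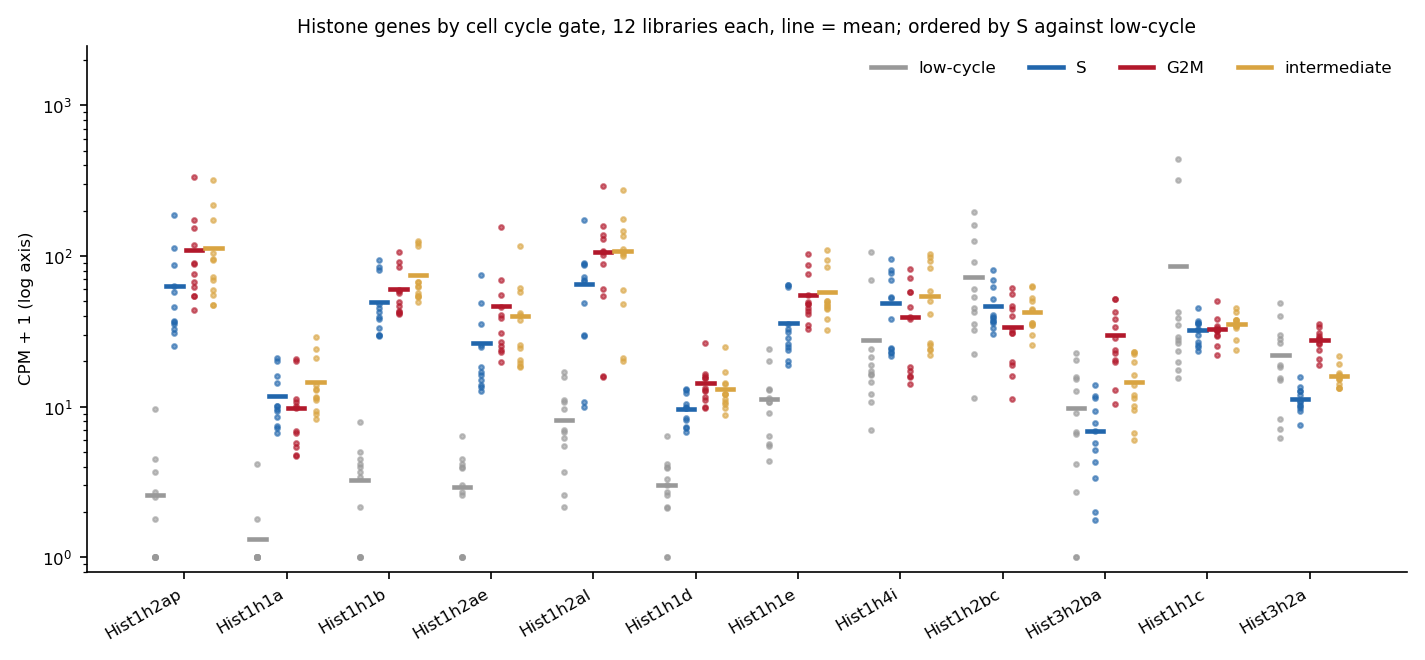
Level (CPM + 1, log axis) of the 12 members tested between the S and low-cycle gates, in the low-cycle, S, G2M and intermediate gates; each point is 1 library. Hist1h2ap, Hist1h1b and Hist1h1a are near 0 in low-cycle cells, and Hist3h2ba and Hist3h2a are lowest in the S gate.

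Within single classes, calls between the G2M and S gates ran in both directions, in part by gene. Hist1h2ap and Hist1h2al were higher in the G2M gate in every class tested except early erythroid cells, where neither was called. Hist3h2a was higher in each class where it was tested. Outside early erythroid cells, each lower call was of Hist1h1c, Hist1h2bc or Hist1h4i, and Hist1h1c was higher in B lymphoid cells. In B lymphoid cells 8 of 11 tested members were higher in the G2M gate and none was lower (30.4% of genes called), and all 4 tested in megakaryocyte-erythroid progenitors were higher (11.7%). In stem and multipotent cells 5 of 6 were higher (11.2%). In early erythroid cells, however, 1 of 10 was higher and 6 were lower (12.1%). Granulocyte-monocyte progenitors had 5 higher and 3 lower of 9 (37.8%), monocyte progenitors 2 and 2 of 6 (27.8%), and late granulocytes 3 and 1 of 6 (44.3%). These fits used 4 libraries in stem and multipotent cells, 7 in megakaryocyte-erythroid progenitors and 7 in B lymphoid cells, against 12 in the other classes. The differences between classes in this contrast were not tested.

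Between cell classes, gated by marker lists that hold no histone, each class was compared with the mean of the other 7, and 22 members were tested among 9309 genes. Late erythroid cells had the highest member sum of these 8 classes. All 22 members were higher there (33.8% of genes higher, 43.4% lower), with a median log2 difference of 2.58. Hist3h2ba differed most, by 5.27, with 128 CPM on average (78.0 to 172) against class means of 2.28 to 14.4 CPM elsewhere, and Hist1h4i least, by 1.43. The member sum was 1463 ± 442 CPM, and 2901 ± 906 CPM when haemoglobin UMIs, 39.0% to 59.5% of this class, were left out of the total. The polyadenylated list summed to 397 ± 82.7 CPM there and to class means of 72.5 to 145 CPM in the others.

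Granulocyte-monocyte progenitors, gated with early granulocytes, had the lowest member sum, 308 ± 55.0 CPM, and all 22 members were lower there (38.4% of genes higher, 32.8% lower), with a median of -1.29. Monocyte progenitors had 404 ± 76.3 CPM, with 20 members lower and none higher (37.6% and 33.2%). Early erythroid cells had 881 ± 212 CPM, with 11 members higher and 6 lower (42.7% and 39.5%). The members higher there included Hist1h1a (1.36) and Hist1h1b (1.12), whereas 4 of the polyadenylated list were lower and none higher, Hist3h2a by -0.75. In late erythroid cells, by comparison, the 22 higher members included all 7 of the list.

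In the other 4 classes the counts of members depended on the scaling, as did those of all genes, whose shares higher and lower are given in parentheses. Late granulocytes, with 373 ± 120 CPM, had 1 member higher, Hist1h1c by 0.55, and 8 lower (39.7% and 45.6%), but none higher and 21 lower without TMM factors (20.8% and 69.9%). Stem and multipotent cells, with 703 ± 144 CPM, had 2 higher and 5 lower (35.2% and 29.1%), but 11 higher and none lower without TMM factors (62.9% and 10.7%). Megakaryocyte-erythroid progenitors, with 697 ± 92.3 CPM, had 3 higher and 1 lower (33.5% and 28.7%), against 8 and 0 without TMM factors (59.1% and 11.4%). Basophil and mast cells, with 591 ± 209 CPM, had none higher and 4 lower (25.8% and 16% of genes), against 1 and 0 without TMM factors (52.3% and 3.31%). The scaling factors ran from 0.394 to 1.36, and leaving them out moved the median of all genes from 0.04 to 0.46 in stem and multipotent cells, from -0.19 to -1.32 in late erythroid cells and from -0.09 to -0.76 in late granulocytes. Late erythroid cells kept 22 members higher and none lower under both scalings, with 13% of all genes higher and 79.7% lower without TMM factors. B lymphoid cells, with 11 libraries of enough cells, were described only, and their member sum was 1029 to 2386 CPM.

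**Figure D4:**
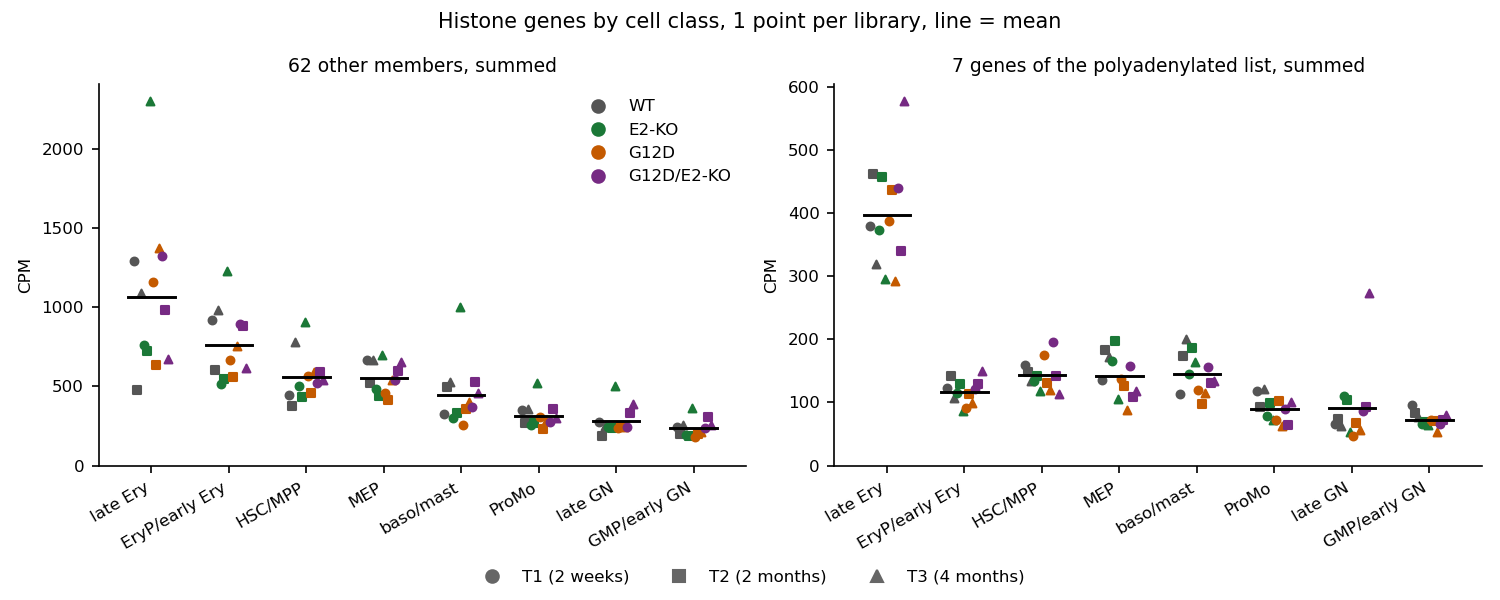
Summed level (CPM) of the replication-dependent members (left) and of the 7 members of the polyadenylated list (right) in 8 marker-gated classes; each point is 1 of 12 libraries. Late erythroid cells are highest on both sides, and the highest replication-dependent sum in each class is that of E2-KO T3.

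Genotypes were then compared within each class, since the makeup of the marrow differed between genotypes. Hist3h2ba gave the clearest result, in late granulocytes, the maturing neutrophils. It stood at 0.652, 1.02 and 0.455 CPM in WT, 25.3, 13.5 and 9.35 in E2-KO, 0.844, 0.274 and 0.265 in G12D, and 17.9, 16.9 and 25.4 in the double mutant G12D/E2-KO. All 6 libraries with Ezh2 deleted, with 244 UMIs in total, lay above all 6 with Ezh2 present, with 15 UMIs. In this class Hist3h2ba passed the filter on low counts only through the Ezh2-deleted libraries, where it is high.

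The log2 difference of Hist3h2ba in late granulocytes was 4.24 in E2-KO against WT (SE 0.43, adjusted p = 1.33e-06, 1 of 22 members tested and 2.27% of genes called). It was 4.42 in G12D/E2-KO against WT (adjusted p = 7.17e-08, 4.61% of genes called) and 5.08 in G12D/E2-KO against G12D (adjusted p = 2.34e-08, 2.79% of genes called). Leaving out any 1 library kept all 3 calls, with ranges of 3.85 to 4.73, 4.09 to 4.91 and 4.79 to 5.66. G12D did not differ detectably from WT, by -0.67 with SE 0.71 (adjusted p = 0.999), at the few UMIs of these libraries, and no member was called there beside 0.242% of genes (1 at an unadjusted p under 0.05). Most of the UMIs lay in the G2M gate, where the Ezh2-deleted libraries gave 13.8 to 38.3 CPM from 180 UMIs and the others 0 to 1.92 CPM from 7 UMIs, while the S gate held 11 and 1 UMIs and the low-cycle gate 3 and 0.

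Hist3h2ba was called higher in 4 other classes, in some of these contrasts. In megakaryocyte-erythroid, granulocyte-monocyte and monocyte progenitors it passed the filter on low counts only through Ezh2-deleted libraries, where it is high. In early erythroid cells Hist3h2ba was higher by 0.93 in E2-KO (adjusted p = 0.0178, 2.64% of genes called), by 1.25 in G12D/E2-KO against WT (adjusted p = 0.00430, 2.71%) and by 1.10 against G12D (adjusted p = 0.0301, 1.23%). None of the 3 was called without the time block, with adjusted p of 0.187, 0.0887 and 0.313. DESeq2 did not call the first (adjusted p = 0.0546) or the third (0.0668), and a class margin of 0.5 lost the third (0.107). The first was lost without any 1 of the 3 WT or the 3 E2-KO libraries (adjusted p up to 0.257), the second without WT T2 or G12D/E2-KO T2 (0.0590 and 0.0506), and the third without E2-KO T1, any 1 G12D library, G12D/E2-KO T1 or G12D/E2-KO T2 (up to 0.241). In megakaryocyte-erythroid progenitors G12D/E2-KO was higher than WT by 2.44 (adjusted p = 0.0104, 1.13% of genes), with 10.2 to 22.5 CPM in the Ezh2-deleted libraries and 0.934 to 5.51 in the others. DESeq2 did not make this call (adjusted p = 0.106), and it was lost without WT T1, WT T3 or G12D/E2-KO T1 (0.0623, 0.143 and 0.0746). Against G12D, G12D/E2-KO was higher by 1.99 in granulocyte-monocyte progenitors (adjusted p = 0.0281, 3.8% of genes) and by 1.79 in monocyte progenitors (adjusted p = 0.0459, 2.31% of genes). Neither was called without the time block (adjusted p of 0.0529 and 0.0567) or by DESeq2 (0.113 and 0.167). The call in granulocyte-monocyte progenitors was also lost with a class margin of 0.5 (0.0551) and without G12D T1, G12D T2, G12D/E2-KO T1 or G12D/E2-KO T2 (up to 0.263). That in monocyte progenitors was lost without WT T1, E2-KO T2, any 1 G12D library or any 1 G12D/E2-KO library (up to 0.266). In granulocyte-monocyte progenitors, the Ezh2-deleted libraries gave 1.88 to 5.67 CPM and the others 0.384 to 1.65. In basophil and mast cells the ranges were 10.5 to 31.6 and 0 to 10.3 CPM, and in stem and multipotent cells they overlapped, with 5.48 to 34.4 and 5.37 to 17.3 CPM, and edgeR called no member in either class (0 to 3 per contrast at an unadjusted p under 0.05, with 0.0622% to 0.603% of genes called).

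Late erythroid cells, where Hist3h2ba is highest, showed no such difference. The Ezh2-deleted libraries gave 88.2 to 168 CPM and the others 78.0 to 172. The log2 differences were 0.30 (SE 0.22, adjusted p = 0.579) for E2-KO, 0.29 (adjusted p = 0.697) for G12D/E2-KO against WT and 0.03 (adjusted p = 0.977) against G12D. Of all genes, 2.41%, 1.32% and 0.908% were called in this class. The difference between late granulocytes and late erythroid cells was itself tested in 1 fit, and was 3.93 for E2-KO (adjusted p = 5.31e-09), 4.18 for G12D/E2-KO against WT (adjusted p = 2.87e-11) and 4.99 against G12D (adjusted p = 4.35e-13). These contrasts called 1.12%, 1.12% and 0.541% of genes. Per 1000 UMIs of Hba-a1, a haemoglobin RNA of erythroid cells, late granulocytes held 18.5 to 306 UMIs of Hist3h2ba in the Ezh2-deleted libraries and 2.23 to 5.86 in the others, and late erythroid cells held 0.745 to 2.04.

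**Figure D5:**
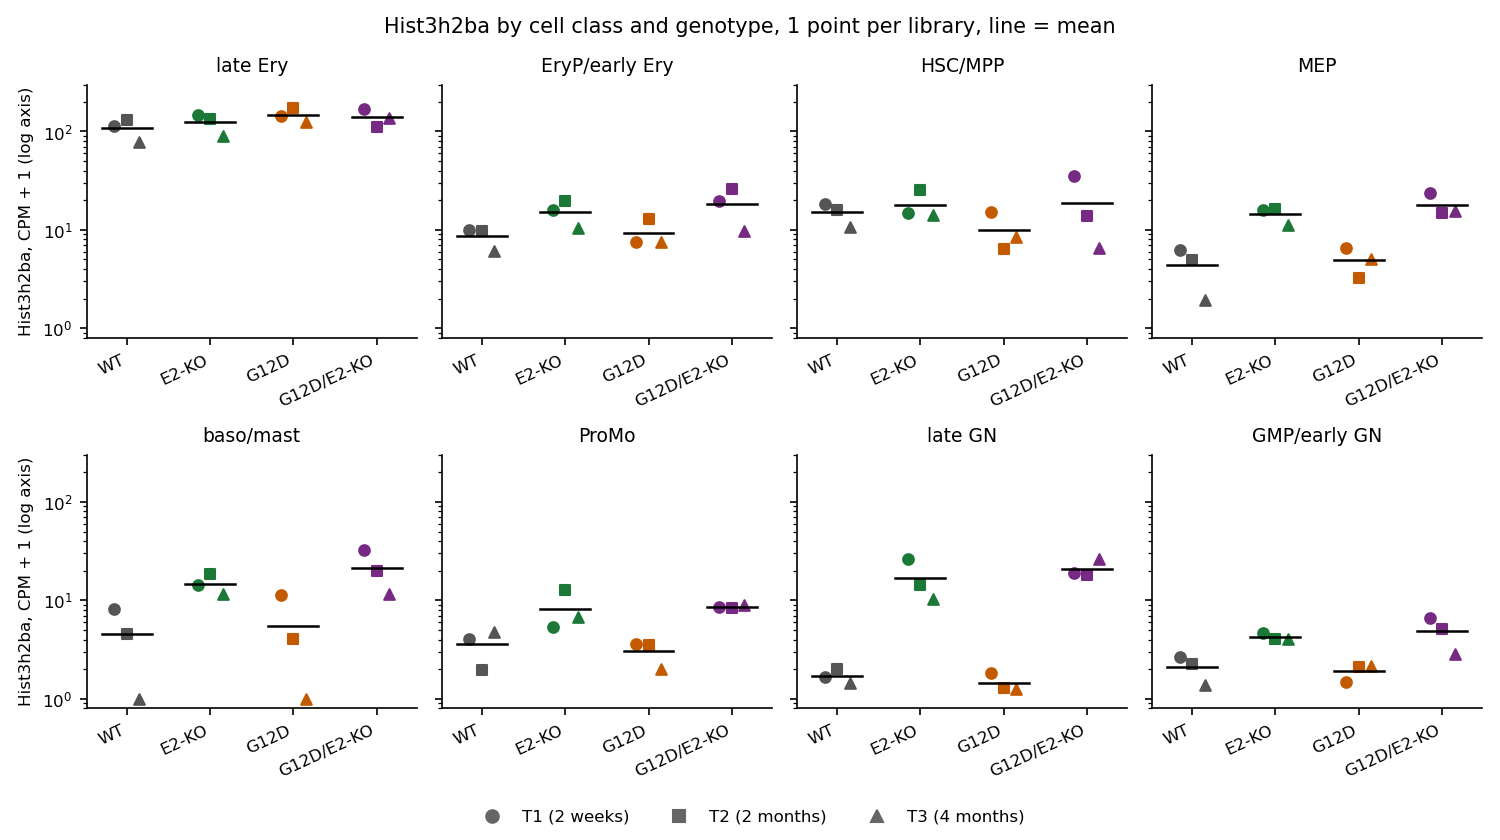
Level of Hist3h2ba (CPM + 1, log axis) in 8 marker-gated classes, by genotype. Each point is 1 library. In late granulocytes the E2-KO and G12D/E2-KO libraries lie at 9.35 to 25.4 CPM and the others at 0.265 to 1.02 CPM, and in late erythroid cells all libraries lie between 78.0 and 172 CPM.

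Its neighbor Hist3h2a rose in 1 comparison within classes. In late granulocytes it stood at 8.14, 7.98 and 10.02 CPM in WT, 16.8, 15.7 and 7.65 in E2-KO, 10.97, 11.8 and 13.5 in G12D, and 20.7, 18.5 and 20.5 in the double mutant G12D/E2-KO. G12D/E2-KO did not overlap WT or G12D, and it was 1.03 higher than WT (SE 0.24, adjusted p = 0.0133), a call kept in 9 of 12 fits that left out 1 library. It was lost without WT T1 (adjusted p = 0.0780), WT T2 (0.1014) or G12D/E2-KO T1 (0.0730). E2-KO T3 lay below every WT library.

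Hist1h2bc was lower in mutant than in WT libraries among granulocyte-monocyte progenitors and S-gated cells. In granulocyte-monocyte progenitors it stood at 53.8, 34.1 and 41.1 CPM in WT, 15.8, 20.0 and 14.3 in E2-KO, 26.9, 19.4 and 18.1 in G12D, and 15.6, 16.7 and 21.5 in the double mutant G12D/E2-KO. Every mutant library lay below every WT library. It fell by 1.28 on the log2 scale in E2-KO (adjusted p = 0.000917, 1 of 29 members called beside 1.42% of genes) and by 1.26 in G12D/E2-KO (adjusted p = 0.000550, 2.89% of genes), and differed by -0.91 in G12D (adjusted p = 0.0788, 0.164% of genes, called by DESeq2 with adjusted p = 0.0489). Both calls held in all 12 fits that left out 1 library, and the difference in G12D was called in 4 of them, those without WT T2, E2-KO T2, G12D/E2-KO T1 or G12D/E2-KO T3. In S-gated cells it stood at 61.4 to 80.3 CPM in WT and at 29.5 to 50.9 CPM in all mutant libraries, and it fell by 0.77 in E2-KO (adjusted p = 0.0121), 0.81 in G12D (adjusted p = 0.0298) and 1.04 in G12D/E2-KO (adjusted p = 0.000821). The share of genes called there was 1.15%, 0.177% and 2.94%, and it was 1.07% against G12D and 0.0466% for the interaction, where no member was called (2 and 3 at an unadjusted p under 0.05). The call of Hist1h2bc in S-gated G12D/E2-KO cells held without any 1 library, that in E2-KO was lost without WT T2, WT T3, E2-KO T1 or E2-KO T3 (adjusted p up to 0.0951), and that in G12D without any 1 of the WT or G12D libraries (up to 0.256) and without the time block (0.0640). Since each of these comparisons uses the same 3 WT libraries, which also lack Mx1-Cre, an effect of the mutations and one of Mx1-Cre cannot be told apart.

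Hist3h2ba also rose in S-gated E2-KO cells, by 1.69 (adjusted p = 0.0483, and 0.0219 with DESeq2). This call was lost without the time block (0.293) and without WT T2, WT T3, E2-KO T2, E2-KO T3, G12D T1 or G12D T3 (up to 0.268). No other member was called within any of the 8 classes or in S-gated cells by edgeR. In G2M-gated cells edgeR called 0 of 45 members in every genotype contrast, with 0 to 6 at an unadjusted p under 0.05. The share of genes called there was 1.01% in E2-KO, 0.0917% in G12D and 1.7% in the double mutant against WT, 0.614% in the double mutant against G12D and 0.00917% for the interaction. In low-cycle cells it called 0 of 4 in all 5 contrasts, with 0 to 3 at an unadjusted p under 0.05, and DESeq2 called 1 in 3 of the 5. In the same order, edgeR called 9.65%, 0.111%, 0.93%, 0.598% and 0.111% of genes there. The G12D/E2-KO T3 library stood apart in late granulocytes, with 104.6 CPM of Hist1h2bc against 8.02 to 28.0 in the other 11 and 273 CPM for the polyadenylated list.

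Other genes of the histone pathway were taken from lists of variants, processing factors and chaperones. Of 9 replication-independent histone genes, 6 were higher and 2 lower in S-gated than in low-cycle cells, where 34.3% of all genes were higher and 28.2% lower. Of 12 tested genes of histone mRNA transcription and processing, 9 were higher and none lower, with Slbp, the stem-loop binding protein, higher by 1.79, Casp8ap2 by 1.62 and the histone locus factor Npat by 1.30. Of 9 histone chaperones, 8 were higher, Asf1b by 3.33, Nasp by 2.91 and Chaf1a by 2.82. From the S to the G2M gate, 9 of the 12 processing genes fell and none rose, 7 of the 9 chaperones fell and 2 rose, and 7 of the 9 replication-independent histone genes rose and 2 fell, where 30.6% of all genes were lower and 30.5% higher.

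Between genotypes over all cells, none of the 13 processing genes was called by edgeR in any contrast (0 to 3 per contrast at an unadjusted p under 0.05). H1f0, the linker histone of differentiating cells that lies outside the clusters, was higher by 1.24 in E2-KO (adjusted p = 0.0261), by 1.33 in G12D/E2-KO against WT (adjusted p = 0.0144) and by 1.13 against G12D (adjusted p = 0.0419). Of the chaperones, Asf1a (-0.61, adjusted p = 0.0342) and Chaf1b (-0.59, adjusted p = 0.0451) were lower in G12D/E2-KO than in WT.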

How the data were processed

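Single-cell RNA libraries (10x 3′ chemistry, polyA RNA) from 12 mouse marrow samples were analysed. Per the study's methods, the authors aligned reads with Cell Ranger to mm10, removed cells above 10% mitochondrial UMIs and doublets called by Scrublet, and deposited whole-number UMI counts per cell with no normalization. Counting cannot separate near-identical copies.

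Here, cells deposited in both T1 libraries of G12D and G12D/E2-KO (cosine similarity above 0.9) were counted once. UMI counts were summed per library, marker-gated class (minimum 0.3, margin 0.1, at least 20 cells per library) and phase gate. Phase gates used cells thinned to 2000 UMIs, with at least 5 UMIs of 1 list and 2 times the other. Sums were tested with edgeR 4.0.16 (quasi-likelihood, TMM, filterByExpr, R 4.3.3) and Benjamini-Hochberg adjustment at 0.05 over all genes tested, two-sided, with time point (genotypes) or library (gates and classes) as a block. The labels' time point pairs the libraries. Gate and marker genes were left out of gate and class tests. DESeq2 1.42.0, no filter, no block, other gates, other scalings and leaving out each library were alternatives. Scripts were tested on simulated counts.

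Members and lists were chosen with earlier results of these data known. Members named with every library are the 6 with the highest means, those called and those at the ends of the phase comparison. Other members with per-library values were chosen after their values were seen. With 1 library per genotype and time point, p-values of genotype tests measure how far genotype differences vary between time points. Those of gate and class tests measure how far differences within a library vary between libraries. Tests of time use the genotypes as replicates. CPM are counts per 1e+06 UMIs of the library, class or gate.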

Additional observations from a re-analysis of the deposited data

Results flagged for a closer look

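In groups of 4 libraries that share a time point, 1 library stood far from the other 3 for 3 members. Hist1h1b gave 57.6 CPM in E2-KO T2, against 43.6 to 44.9 CPM in the other T2 libraries. Hist1h1e gave 82.3 CPM in WT T1, against 35.8 to 42.7 in the other T1 libraries. Hist1h4i gave 83.5 CPM in WT T1, against 19.2 to 20.9 in the other T1 libraries. In all, 27 such groups were checked, and chance alone marks about 1 in 20.

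The genotype difference of Hist3h2ba differed between late granulocytes and late erythroid cells, by 3.93 (log2) for E2-KO against WT, 4.18 for G12D/E2-KO against WT and 4.99 for G12D/E2-KO against G12D. Of the 14 members tested in this way, Hist1h4i was the only other one, with a difference of 1.25 for G12D/E2-KO against WT (adjusted p = 0.0115, edgeR quasi-likelihood test). For Hist1h4i, late granulocytes gave 43.3, 33.5 and 23.5 CPM in WT and 15.3, 26.2 and 90.9 CPM in G12D/E2-KO, and late erythroid cells gave 133, 75.2 and 102 CPM in WT and 19.2, 52.6 and 62.6 CPM in G12D/E2-KO. The G12D/E2-KO T3 library was the highest of these in late granulocytes.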

How the results depend on the processing

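Over all cells, the call in E2-KO against WT went from 1 member to 0 without the replicate block (Hist3h2ba 1.24, adjusted p = 0.1504), with the tables as deposited, and when the genes of haemoglobin and of late granulocytes were dropped, and to 2 when only these 2 genotypes were fitted. G12D against WT went from 0 members to 3 with DESeq2, 1 without the filter and 2 with only the 2 genotypes, and G12D/E2-KO against WT from 0 to 1 with DESeq2. Leaving out 1 library at a time gave 0 to 1 members for E2-KO, 0 to 1 for G12D, 0 to 4 for G12D/E2-KO against WT and 0 to 1 for G12D/E2-KO against G12D. The share of all genes called in these alternative fits is not given, so their counts do not set members apart from other genes. Hist3h2ba in G12D against WT, not called at -0.12, turned to 0.051 without WT T2, 0.030 without G12D T3 and 0.17 with the tables as deposited, and leaving out 1 library gave -0.34 to 0.051.

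The filter set many counts. Without it, S-gated against low-cycle cells had 28 members called in place of 11 (38.7% of genes called), stem and multipotent cells 13 in place of 7 (40%), granulocyte-monocyte progenitors 42 in place of 22 (42.5%), late granulocytes 16 in place of 9 (52.8%), megakaryocyte-erythroid progenitors 9 in place of 4 (34.9%), early erythroid cells 30 in place of 17 (50.3%) and late erythroid cells 63 in place of 22 (45.1%). These fits tested 68 members between the gates and 69 between classes. More genes enter that fit. Without TMM factors, a setting added after seeing the data, the counts were 11 in stem and multipotent cells (73.6% of genes called), 21 in late granulocytes (90.7%), 8 in megakaryocyte-erythroid progenitors (70.4%) and 1 in place of 4 in basophil and mast cells (55.6%). Late granulocytes had 23 (92.5%) with haemoglobin genes left out, also added, and stem and multipotent cells 4 with a class margin of 0.5 (5376 of 8787 genes called). Leaving out 1 library gave 11 to 12 members for the S gate, where 5083 to 5455 of all genes were called. The counts were 5 to 7 in stem and multipotent cells (5742 to 5932 genes), 6 to 9 in late granulocytes (7773 to 7974) and 19 to 21 in monocyte progenitors (6364 to 6602). They were 3 to 5 in megakaryocyte-erythroid progenitors (5582 to 5702) and 4 to 5 in basophil and mast cells (3611 to 3810). These fits tested 8444 to 8947 genes between the gates and 9238 to 9403 between classes.

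Summed over the 8 classes, G12D against WT had 0 calls, 5 with DESeq2 and 2 with a margin of 0.5. G12D/E2-KO against G12D had 4, but 2 with DESeq2, 1 without the replicate block and 1 with the margin of 0.5, and the interaction had 0 and 2 with DESeq2. Leaving out 1 library gave 2 to 7 calls for E2-KO, 0 to 10 for G12D and 3 to 15 for G12D/E2-KO against WT, all 3 highest without G12D/E2-KO T3, 1 to 4 for G12D/E2-KO against G12D and 0 to 1 for the interaction. In S-gated cells, the counts without the block were 1 in place of 2 for E2-KO and 0 in place of 1 for G12D, which had 2 with DESeq2, and leaving out 1 library gave 0 to 2, 0 to 2, 1 to 3 for G12D/E2-KO against WT and 0 to 1 against G12D. In low-cycle cells, DESeq2 called 1 member in G12D/E2-KO against WT, 1 against G12D and 1 for the interaction, in place of 0, and leaving out 1 library gave 0 to 2, 0 to 3 and 0 to 2. Hist3h2ba within late erythroid cells, not called between G12D/E2-KO and G12D, turned from 0.03 to -0.0056 without the block, and leaving out 1 library gave -0.23 (without G12D/E2-KO T3) to 0.32. Without the block, Hist3h2ba was also no longer called in early erythroid cells, granulocyte-monocyte progenitors, monocyte progenitors or S-gated E2-KO cells, nor Hist1h2bc in S-gated G12D cells. The cause of these changes was not tested. The share of all genes called under these settings is not given. The counts in this paragraph therefore do not set members apart from other genes. Low-cycle sums held 204937 to 1253885 UMIs per library, so low members could not be compared there.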
